A study of Mus musculus with 10 samples.

Results

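The mitochondrial carriers of the Slc25 family were examined in bone marrow derived macrophages (BMDMs) from wild type (WT) and Rac2-/- mice. Members were all genes whose symbol in the platform annotation begins with Slc25a, taken from array features that carry that symbol alone, and the feature with the highest mean over the 10 arrays was used where a gene had several. This gave 46 genes of the 19937 with a feature of their own, read by 50 features. RNA came from 5 WT and 5 Rac2-/- male C57BL mice, hybridised to 1 Affymetrix array each. Rac2 is a small GTPase of blood cells, and the Rac2-/- mice lack it in every cell that would use it, so the genotype is not limited to macrophages. Marrow cells of both groups were freed of early adhering cells and grown in medium with 20% serum and 50 ng/ml MCSF, the growth factor that drives macrophage formation. The labels give 7 days on MCSF and 8 days at 16% oxygen, with no further treatment in either group. The groups therefore differed by genotype alone as far as the labels state. All values below are log2 values made by RMA, a summary of the probes of a feature, and every difference is WT minus Rac2-/-, so that a negative difference means a higher value in Rac2-/- BMDMs.

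Carriers of this family are small proteins of the mitochondrial inner membrane, each built from repeats of the same fold, and they exchange metabolites between the cytosol and the matrix. Adenine nucleotide translocases bring ADP in and ATP out, the phosphate carrier supplies phosphate for ATP synthesis, and other members move citrate, malate, amino acids, carnitine esters, nucleotides, iron and cofactors. In macrophages the citrate and malate carriers and the glutamate and aspartate carriers link the tricarboxylic acid cycle to fatty acid synthesis and to the redox balance of the cytosol. A few relatives work elsewhere, in peroxisomes or in the outer membrane.

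Rac2 itself, the deleted gene, read 12.10 ± 0.27 over the WT arrays and 7.10 ± 0.29 over the Rac2-/- arrays (mean ± SD, n = 5 each, adjusted p = 7.73e-07), as the labels state. The 10 macrophage markers had a mean of 11.87 to 12.05 in the WT arrays and 11.91 to 12.10 in the Rac2-/- arrays. Single markers were not all alike, with 3 higher in WT and 7 in Rac2-/-. The groups did not overlap for 4 of them, beside 4.52% of all features. These were Cd68 and Fcgr1, higher in WT, and Itgam and Mrc1, higher in Rac2-/-. Mrc1 had a difference of -0.66 (adjusted p = 0.00352) and Fcgr1 of 0.74 (adjusted p = 0.123). Across all features the arrays fell into arrays 1 and 2 of both groups and arrays 3 to 5 of both groups, with correlations of 0.974 to 0.996 within and 0.934 to 0.955 between these sets. No source used here gives a reason for this split, which is called the array sets below. A mean over 9 genes of cycling cells was 10.09 in Rac2-/- array 5, 7.01 to 7.68 in the other Rac2-/- arrays and 6.55 to 7.43 in WT. A mean over 8 mast cell and basophil genes was 5.31 to 5.96 in WT and 5.05 to 5.21 in Rac2-/-, without overlap. Taken singly, only Hdc of these genes had no overlap between the groups. In whole cultures, a lower value can come from fewer cells of a type or from less RNA per cell, and these cannot be told apart.

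Most carriers had nearly the same value in both genotypes. Of the 46 genes, 44 passed the filter on low values and were tested with limma, and 1 of them passed an adjusted p of 0.05. This was Slc25a22, a mitochondrial glutamate carrier, which was lower in Rac2-/- BMDMs. Over all features tested the same test called 1.9% (1.11% higher in WT and 0.795% higher in Rac2-/-), so the count of members was near the background. At an unadjusted p under 0.05 there were 6 members, beside 10.4% of all features. Slc25a31, among the 6, passed the filter only through Rac2-/- arrays. The means were higher in WT for 21 members and higher in Rac2-/- for 23, Slc25a31 among them, beside 49.9% of all features higher in Rac2-/-. The median difference was -0.02 against 0.0003 over all features, and 35 of the 44 lay within 0.25 of 0. The median size of the difference was 0.144 in the family and 0.104 over all features. WT and Rac2-/- arrays did not overlap for 1 member, beside 4.52% of all features.

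With the replicate number as a block, which compares arrays of the same number, 4 members passed, beside 6.35% of all features (3.03% higher in WT and 3.32% higher in Rac2-/-). Slc25a22 was higher in WT, and the ATP-Mg/phosphate carrier Slc25a23 and the adenine nucleotide translocases Slc25a4 and Slc25a31 were higher in Rac2-/-. Slc25a31 passed the filter only through Rac2-/- arrays, so its call here and in the next fit is no support for a difference. With a term for the array sets in place of the block 6 members passed, beside 9.34% of all features (4.36% higher in WT and 4.98% higher in Rac2-/-), and the 2 that were added are the ornithine carrier Slc25a15 and Slc25a43. The direction was the same in both array sets for 32 of the 44 members, beside 64.2% of all features.

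**Figure D1:**
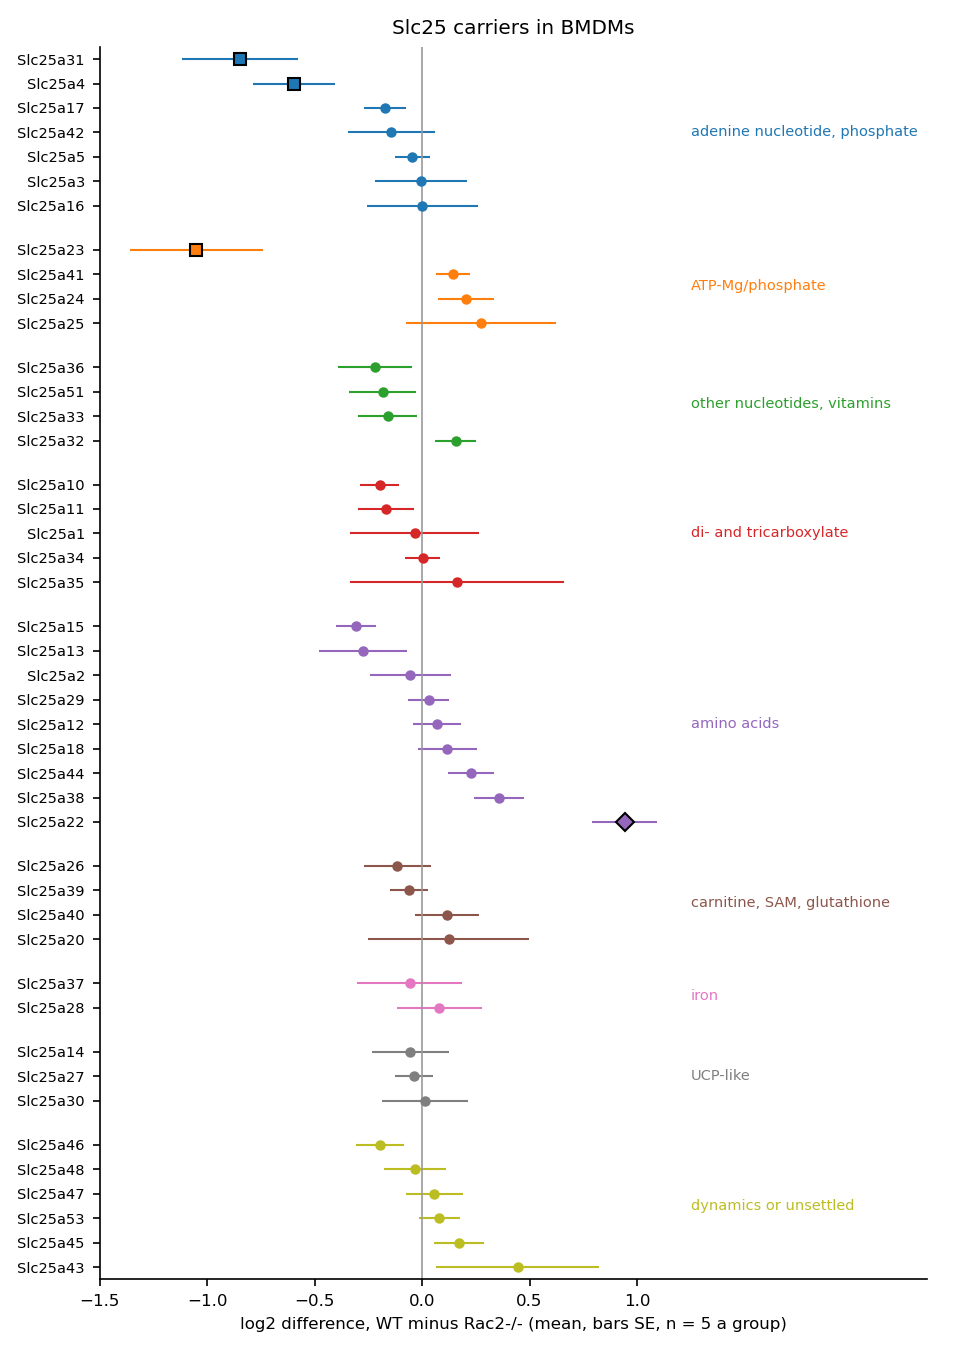
Log2 difference, WT minus Rac2-/-, for the 44 tested Slc25 genes, ordered by role, with points for the mean difference and bars for its SE (n = 5 a group). The diamond marks Slc25a22 (adjusted p = 0.0132), and squares mark Slc25a23, Slc25a4 and Slc25a31, which passed with the replicate block but not without it. Slc25a31 passed the filter only through Rac2-/- arrays. Most other points lie near 0.

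The promoters of these 4 carriers are shown because they are the members that passed in either fit. Each is the 300 bases from 250 before to 50 after the transcription start in RefSeq (GRCm38.p6), read 5′ to 3′ on the gene's strand. Capitals mark the GC box GGGCGG on either strand, so that its reverse complement is in capitals too, and runs that overlap are joined. Where RefSeq gives several starts, the window with most GC boxes is printed.
Slc25a22 promoter, chr7:141435326-141435625, minus strand: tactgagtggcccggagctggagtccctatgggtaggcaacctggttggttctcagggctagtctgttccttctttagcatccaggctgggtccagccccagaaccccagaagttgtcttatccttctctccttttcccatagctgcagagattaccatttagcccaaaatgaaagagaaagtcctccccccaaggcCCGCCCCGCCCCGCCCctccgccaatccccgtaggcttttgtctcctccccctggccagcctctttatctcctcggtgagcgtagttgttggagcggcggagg
Slc25a23 promoter, chr17:57059793-57060092, minus strand: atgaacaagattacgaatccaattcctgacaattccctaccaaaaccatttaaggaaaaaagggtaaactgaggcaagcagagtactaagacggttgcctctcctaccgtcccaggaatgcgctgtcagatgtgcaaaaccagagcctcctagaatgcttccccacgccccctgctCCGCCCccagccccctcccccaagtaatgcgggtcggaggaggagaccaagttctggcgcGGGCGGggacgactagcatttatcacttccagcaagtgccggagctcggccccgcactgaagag
Slc25a4 promoter, chr8:46211013-46211312, minus strand: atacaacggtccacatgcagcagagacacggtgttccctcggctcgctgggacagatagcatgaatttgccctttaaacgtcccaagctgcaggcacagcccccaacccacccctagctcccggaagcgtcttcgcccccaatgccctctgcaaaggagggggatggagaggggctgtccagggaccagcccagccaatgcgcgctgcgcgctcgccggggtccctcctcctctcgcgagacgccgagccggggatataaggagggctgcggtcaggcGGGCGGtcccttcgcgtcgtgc
Slc25a31 promoter, chr3:40708621-40708920, plus strand: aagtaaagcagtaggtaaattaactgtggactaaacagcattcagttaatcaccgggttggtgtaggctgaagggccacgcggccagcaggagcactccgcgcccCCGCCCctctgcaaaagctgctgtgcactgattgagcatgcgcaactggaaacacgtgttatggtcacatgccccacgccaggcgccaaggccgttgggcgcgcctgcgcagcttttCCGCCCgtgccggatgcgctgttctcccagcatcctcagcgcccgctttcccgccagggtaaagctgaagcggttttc
The Slc25a22 window held 3 GC boxes in a cluster before the start. The windows of Slc25a23 and Slc25a31 held 2 each, and that of Slc25a4 held 1, after the start. RefSeq gave 3 windows for Slc25a22, 2 for Slc25a23 and 1 each for Slc25a4 and Slc25a31. The choice among them was by GC boxes, so these counts do not rank the genes.

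A window was listed for 36 of the 46 genes, with 46 windows in all. The GC box occurred in 38 of the 46 windows (82.6%), in 54.5% of the windows of all tested genes and in 35.7% of all 32851 windows. CCAAT, on either strand, occurred in 47.8% of the family's windows, in 36.9% of those of tested genes and in 37.4% of all. The E-box CACGTG occurred in 17.4%, 8.94% and 7.15%, and TATAAA in 4.35%, 8.94% and 13.6%, in the same order and on either strand. The motif of NRF1, a regulator of respiratory chain genes, occurred in 4.35% of the family's windows, 7.72% of those of tested genes and 4.6% of all. Among the printed windows, only that of Slc25a31 held the E-box and the NRF1 motif. A match of letters is a description and shows no binding.

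The amino acid carriers were the group with the member that passed without a block. Of 9 tested carriers 6 had the higher mean in WT and 3 in Rac2-/-, with a median of 0.07 and a range from -0.31 to 0.94. Slc25a22 (GC1) carries glutamate into the matrix together with protons. It was at 9.05, 9.05, 8.95, 8.97 and 9.28 in WT arrays 1 to 5 and at 8.66, 8.13, 7.97, 8.06 and 7.77 in Rac2-/- arrays 1 to 5. Every WT array lay above every Rac2-/- array, and Rac2-/- array 1 was the nearest to WT. The difference was 0.94 (SE 0.15, adjusted p = 0.0132, and 0.0175 with the block), a 1.92-fold lower value in Rac2-/- BMDMs. It was 0.65 within arrays 1 and 2 and 1.13 within arrays 3 to 5. It passed in all 10 fits that leave out an array, with differences from 0.85 to 1.08 and adjusted p from 0.00116 to 0.0424. It did not pass within arrays 1 and 2 alone (adjusted p = 0.486). The mean over the mast cell and basophil genes given above also had no overlap between the groups. The part of these genes in this difference was not tested.

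Its close relative Slc25a18 (GC2), the other glutamate carrier, was at 5.61 to 6.13 in WT and 5.54 to 6.10 in Rac2-/-, and the groups overlapped. The difference was 0.12, with a 95% confidence interval from -0.19 to 0.42. The aspartate/glutamate exchangers, which feed the malate-aspartate shuttle, did not pass either. Slc25a12 (aralar) had a difference of 0.07 (adjusted p = 0.999), and Slc25a13 (citrin) had -0.28 (adjusted p = 0.848). Slc25a13 was at 8.20 in Rac2-/- array 5, the array with high cycling genes, and at 8.11, 7.82, 7.25 and 7.35 in Rac2-/- arrays 1 to 4. The mean over the cycling genes was 7.01 in Rac2-/- array 1 and 10.09 in Rac2-/- array 5. Whether cycling genes have a part in the values of Slc25a13 was not tested.

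Slc25a38, which imports glycine for the first step of haem synthesis, was at 8.78, 9.03, 8.86, 8.87 and 9.09 in WT and at 8.78, 8.77, 8.47, 8.54 and 8.26 in Rac2-/- arrays 1 to 5. The groups met at array 1 and lay apart in arrays 3 to 5. The difference was 0.36 (SE 0.12, adjusted p = 0.215, and 0.134 with the block), with 0.13 and 0.51 within the array sets, and it passed within arrays 3 to 5 alone (adjusted p = 0.044). Slc25a15 (ORC1), the ornithine carrier that also serves the urea cycle in liver, was at 7.16, 7.06, 7.06, 7.05 and 6.85 in WT and at 7.24, 7.55, 7.42, 7.35 and 7.15 in Rac2-/-. The highest WT array lay just above the lowest Rac2-/- array, and within each array set the groups did not overlap. The difference of -0.31 had an adjusted p of 0.185, 0.0592 with the block and 0.0468 with the term for the array sets. The branched chain amino acid carrier Slc25a44 had a difference of 0.23 (adjusted p = 0.511), and the basic amino acid carriers Slc25a2 and Slc25a29 had -0.06 and 0.03.

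**Figure D2:**
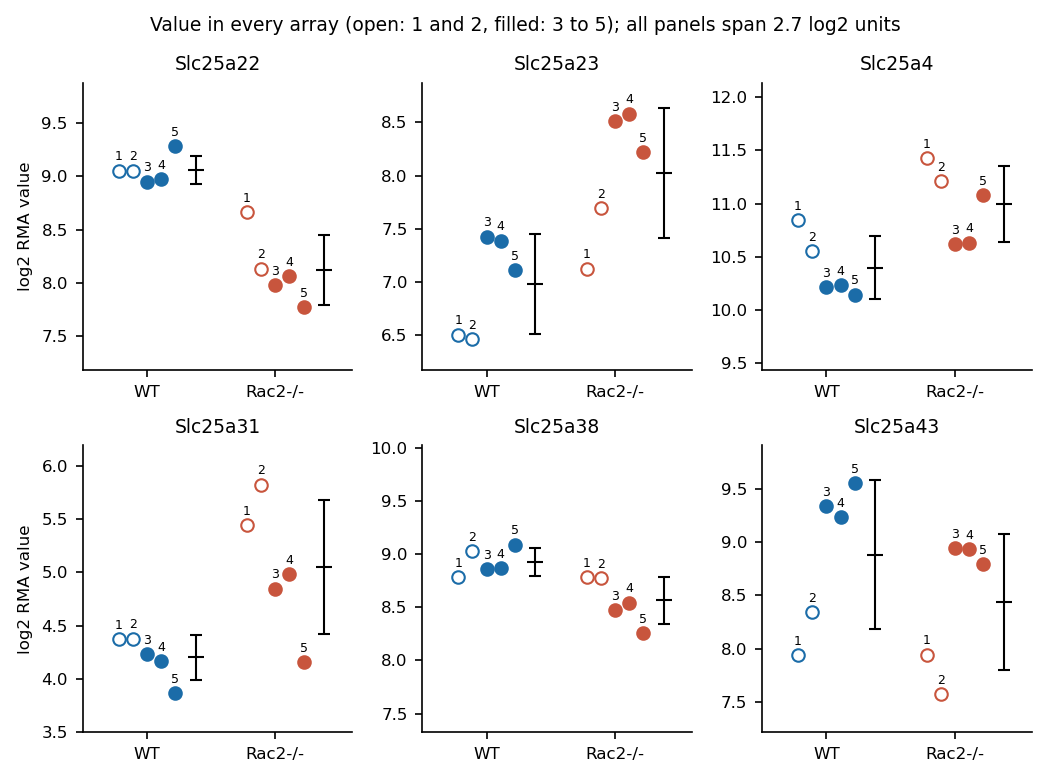
Log2 RMA values of 6 carriers in each of the 10 arrays, with WT in blue, Rac2-/- in red, the replicate number above each point and black marks for mean and SD (n = 5). Slc25a22 parts the genotypes in all arrays, while Slc25a23, Slc25a4 and Slc25a43 part them within arrays 1 and 2 or 3 to 5 but overlap or touch across them, and Slc25a31 is near the WT level in Rac2-/- array 5.

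Of the calcium-regulated carriers of ATP-Mg and phosphate, which adjust the adenine nucleotide content of the matrix, Slc25a23 stood apart from the others by its value. Slc25a23 (SCaMC-3) was at 6.50, 6.46, 7.43, 7.39 and 7.11 in WT arrays 1 to 5 and at 7.13, 7.70, 8.51, 8.58 and 8.22 in Rac2-/- arrays 1 to 5. Rac2-/- arrays 1 and 2 reached the level of WT arrays 3 to 5, so the groups overlapped over all arrays, but in each array set every Rac2-/- array lay above every WT array. The difference was -1.05 (SE 0.31), 2.07-fold higher in Rac2-/-, with -0.93 and -1.13 within the array sets. Its adjusted p was 0.164 without a block, 0.00459 with the block and 0.000988 with the term for the array sets. It also passed without Rac2-/- array 1 (difference -1.27, adjusted p = 0.0432) and in no other fit that leaves out an array. The study chose this gene for mention on these same samples. It lists the gene as lower in WT, the same direction as here. That list is of genes it found differentially expressed, and its methods set a false discovery rate of 5%. The fit without a block did not call the gene here. The scale of the study's fold is not stated, so that fold is not set beside the one above. The study's methods name ComBat before limma, and ComBat was not run here.

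The other tested carriers of the group had the higher mean in WT. Slc25a24 (SCaMC-1) had a difference of 0.20 (adjusted p = 0.772), Slc25a25 (SCaMC-2) had 0.27 (adjusted p = 0.987) and Slc25a41 had 0.14 (adjusted p = 0.678). Slc25a25 differed more between the array sets, at 7.55 to 8.02 in arrays 1 and 2 of both genotypes and 6.38 to 6.87 in arrays 3 to 5. Within each array set its WT arrays lay above its Rac2-/- arrays.

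Among the adenine nucleotide and phosphate carriers, 6 of 7 had the higher mean in Rac2-/- BMDMs, beside 49.9% of all features, with a median of -0.14. The 6 include Slc25a3, with a difference of -0.004, and Slc25a31, whose direction was set by how it passed the filter. None passed without a block, and 2 passed with it, beside 6.35% of all features. One of the pair, Slc25a31, passed the filter only through Rac2-/- arrays. Slc25a4 (ANT1), the translocase that is prominent in heart and muscle, was at 10.84, 10.56, 10.22, 10.23 and 10.14 in WT and at 11.43, 11.21, 10.62, 10.63 and 11.08 in Rac2-/- arrays 1 to 5. In each array set all Rac2-/- arrays were higher than all WT arrays, and the groups met only where WT array 1 reached above Rac2-/- arrays 3 and 4. The difference was -0.60 (SE 0.19), 1.51-fold higher in Rac2-/-, with -0.62 and -0.58 within the array sets. The adjusted p was 0.215 without a block, 0.0172 with the block and 0.00612 with the term for the array sets. With any array left out it missed the threshold (0.127 to 0.423). Rac2-/- array 5, the array with high cycling genes, was higher for Slc25a4 than Rac2-/- arrays 3 and 4, and whether cycling genes have a part was not tested.

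Slc25a5 (ANT2), the translocase of most dividing cells, had the highest mean of the family at 12.59. It was at 12.45 to 12.72 in WT and 12.51 to 12.72 in Rac2-/-. The groups had nearly the same range. The difference was -0.04, with a 95% confidence interval from -0.22 to 0.13 (adjusted p = 0.999). RefSeq lists pseudogenes of Slc25a5, and which locus each of its 3 features reads was not resolved here.

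Slc25a31 (ANT4), a translocase known from male germ cells, was at 4.37, 4.38, 4.23, 4.17 and 3.87 in WT and at 5.44, 5.83, 4.85, 4.98 and 4.16 in Rac2-/- arrays 1 to 5. All values were low, and Rac2-/- array 5 lay among the WT arrays. The difference was -0.85 (SE 0.27, adjusted p = 0.207, and 0.0306 with the block), with -1.26 and -0.57 within the array sets. Without Rac2-/- array 5 it was -1.07 (adjusted p = 0.0354), and it passed in no other fit that leaves out an array. The feature passed the filter, whose lowest kept value was 4.73, only through 4 Rac2-/- arrays, so it had to differ and its call is no support for a difference.

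The remaining carriers of this group lay close to 0. The phosphate carrier Slc25a3, the second highest by mean at 11.65, had a difference of -0.004 (95% confidence interval -0.48 to 0.47). The peroxisomal carrier of coenzyme A and adenine nucleotides Slc25a17 had -0.17, the coenzyme A carrier Slc25a42 had -0.14 and Slc25a16 had 0.0019. Values of different features do not rank transcript amounts, since probes differ in their response.

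The di- and tricarboxylate carriers showed no member that passed in either fit. Of 5 tested carriers 2 had the higher mean in WT and 3 in Rac2-/-, with a median of -0.03. The citrate carrier Slc25a1, which exports citrate for fatty acid synthesis, had a difference of -0.03 (95% confidence interval -0.70 to 0.63). The dicarboxylate carrier Slc25a10 had -0.20 (adjusted p = 0.497), and the oxoglutarate/malate carrier Slc25a11, the third highest by mean at 11.22, had -0.17 (adjusted p = 0.869). Slc25a34 and Slc25a35, related carriers whose substrate is less settled, had 0.0026 and 0.16. The oxodicarboxylate carrier Slc25a21 did not pass the filter.

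Carriers of other nucleotides and vitamins, of cofactors and of iron also stayed below the threshold. The pyrimidine nucleotide carriers Slc25a33 and Slc25a36 had differences of -0.16 and -0.22, the NAD carrier Slc25a51 had -0.18 and the folate carrier Slc25a32 had 0.16. Of the carnitine, S-adenosylmethionine and glutathione group, the carnitine/acylcarnitine carrier Slc25a20 had 0.13, the S-adenosylmethionine carrier Slc25a26 had -0.11, and the glutathione carriers Slc25a39 and Slc25a40 had -0.06 and 0.12. The iron carriers mitoferrin 1 (Slc25a37) and mitoferrin 2 (Slc25a28) had -0.06 and 0.08. None of these genes passed under any setting tried.

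The relatives of the uncoupling proteins, Slc25a14, Slc25a27 and Slc25a30, had differences from -0.05 to 0.01. Among carriers of mitochondrial dynamics or of unsettled substrate, Slc25a46, an outer membrane protein of fusion and fission, had -0.20 (adjusted p = 0.694). Slc25a45, Slc25a47, Slc25a48 and Slc25a53 had differences from -0.03 to 0.17. Slc25a43 was at 7.94, 8.34, 9.34, 9.23 and 9.55 in WT and at 7.94, 7.57, 8.94, 8.93 and 8.79 in Rac2-/- arrays 1 to 5. It was higher in arrays 3 to 5 than in arrays 1 and 2 in both genotypes, and within arrays 3 to 5 every WT array lay above every Rac2-/- array. Its difference was 0.44 (SE 0.38, adjusted p = 0.903, and 0.0933 with the block), with 0.38 and 0.48 within the array sets, and it passed with the term for the array sets (adjusted p = 0.0281) and within arrays 3 to 5 alone (0.0458).

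The carriers varied more with the array sets than with genotype. For 20 of the 44 members arrays 1 and 2 did not overlap arrays 3 to 5 when both genotypes were pooled, 5 of them higher in arrays 1 and 2 and 15 higher in arrays 3 to 5. Over all features 33% did not overlap in this way. The median size of the difference between the array sets was 0.337 in the family and 0.247 over all features. These sets are no groups of the study, so the values are a description, with no test.

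Slc25a35 differed most, at 6.50 to 6.86 in arrays 1 and 2 and 7.68 to 8.52 in arrays 3 to 5 of both genotypes, a difference of -1.55. Slc25a43 and the citrate carrier Slc25a1 followed in the same direction, at -1.18 and -0.95. In the other direction, the carnitine/acylcarnitine carrier Slc25a20 was at 9.93 to 10.16 in arrays 1 and 2 and 8.62 to 9.09 in arrays 3 to 5, a difference of 1.18, and Slc25a25 had 1.09. The phosphate carrier Slc25a3 and both mitoferrins were higher in arrays 3 to 5, with -0.66, -0.76 and -0.52. Each array set held both genotypes, so the split leaves the mean genotype difference nearly as it is and widens its error. Within the array sets, the genotypes did not overlap in either set and had the same direction for 9 members (Slc25a4, Slc25a11, Slc25a15, Slc25a17, Slc25a22, Slc25a23, Slc25a25, Slc25a36 and Slc25a46), beside 13.9% of all features.

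**Figure D3:**
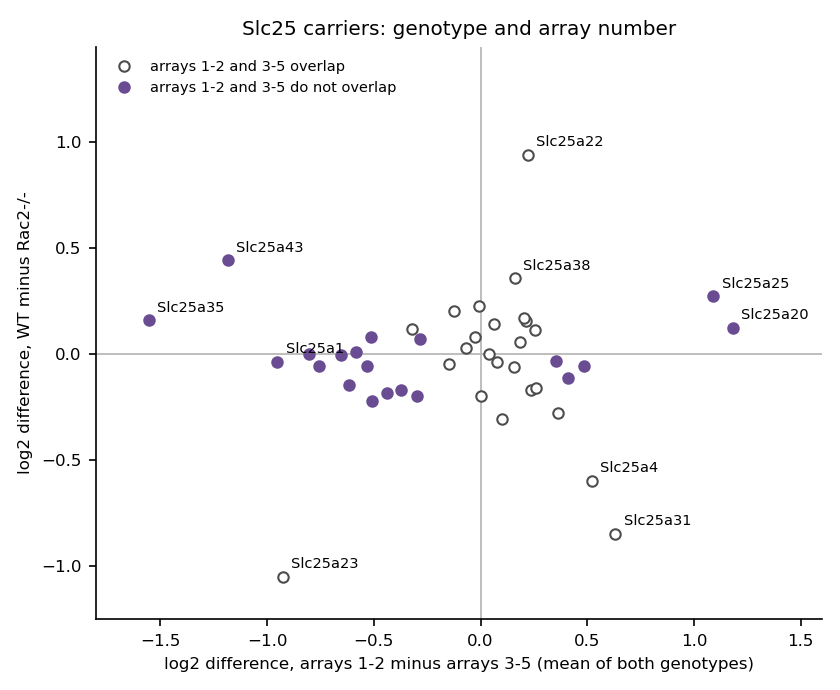
Log2 difference between genotypes (WT minus Rac2-/-) against the log2 difference between arrays 1 and 2 and arrays 3 to 5, a point for each of the 44 tested carriers. Filled points are the 20 carriers whose array sets did not overlap. Slc25a22 lies far up with little spread along the horizontal axis (0.22). Slc25a35, Slc25a20 and Slc25a25 spread along it, with smaller genotype differences of 0.16, 0.13 and 0.27.

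**Figure D4:**
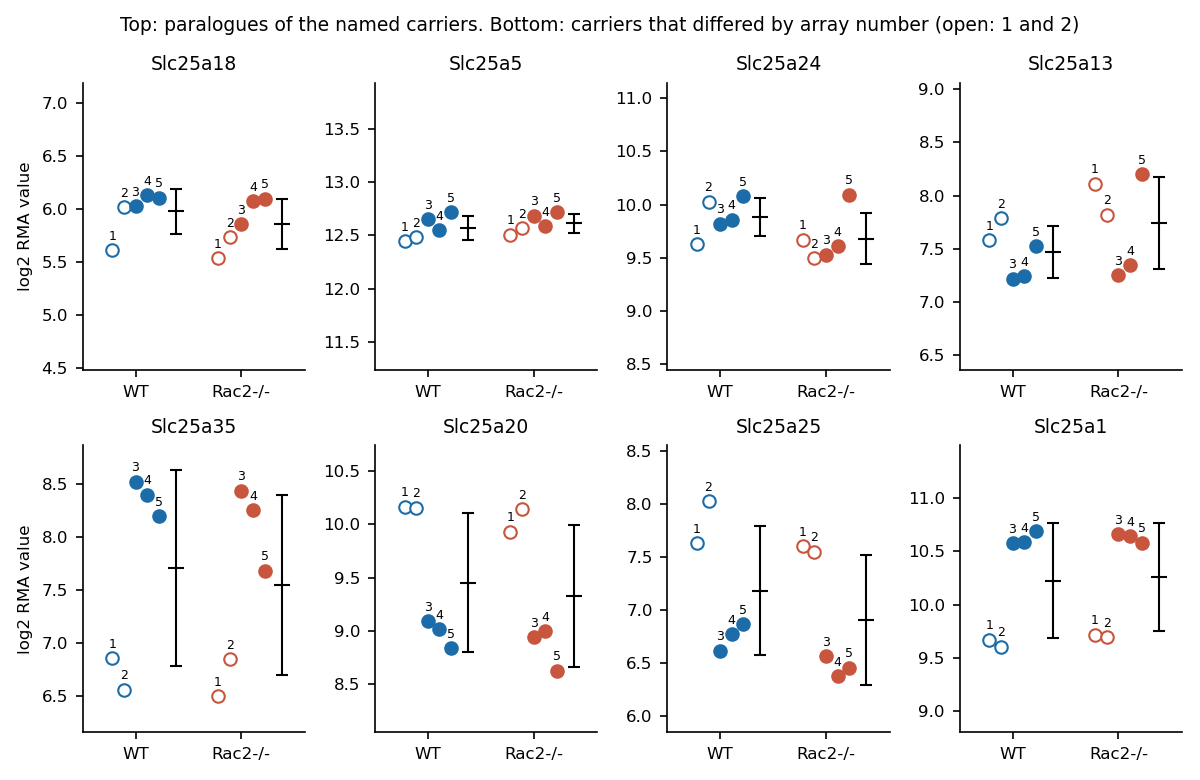
Log2 RMA values in each of the 10 arrays, with WT in blue, Rac2-/- in red, open points for arrays 1 and 2, filled points for arrays 3 to 5 and black marks for mean and SD (n = 5). The upper row shows Slc25a18, Slc25a5, Slc25a24 and Slc25a13, whose genotypes overlap, and the lower row shows Slc25a35, Slc25a20, Slc25a25 and Slc25a1, whose open and filled points lie apart in both genotypes.

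Genes that work with the carriers were read from a list of 75 fixed by role, of which 67 had a feature and 66 were tested. Of these 22 had the higher mean in WT and 44 in Rac2-/- BMDMs, beside 49.9% of all features higher in Rac2-/-, with a median of -0.06. No gene passed without a block at an adjusted p of 0.05, beside 1.9% of all features, or at an unadjusted p under 0.05, beside 10.4%. The 3 smallest adjusted p were those of the cytosolic aconitase Aco1 (0.612), the cytosolic aspartate aminotransferase Got1 (0.615) and the mitochondrial transcription factor Tfb2m (0.621). With the block 2 of the 66 genes passed, both higher in Rac2-/-, beside 6.35% of all features (3.32% higher in Rac2-/-), so the count was not above the background. The carnitine acetyltransferase Crat was at 9.52, 9.46, 10.28, 10.41 and 10.41 in WT and at 9.81, 9.80, 10.59, 10.64 and 10.65 in Rac2-/- arrays 1 to 5. Each Rac2-/- array lay above the WT array of the same number. The difference was -0.29 (adjusted p = 0.932, and 0.0325 with the block).

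Aco1, which turns into an iron regulatory protein when it loses its iron-sulphur cluster, was at 9.27, 9.21, 8.81, 8.87 and 8.71 in WT and at 9.43, 9.45, 9.12, 9.15 and 9.03 in Rac2-/- arrays 1 to 5. Here too every Rac2-/- array lay above the WT array of its number. The difference was -0.26 (adjusted p = 0.0452 with the block). Of the 9 tested genes of iron, haem and iron-sulphur clusters 8 had the higher mean in Rac2-/-, beside 49.9% of all features. So had 6 of 7 genes of the carnitine shuttle and citrate use and 5 of 7 of the malate-aspartate and glycerophosphate shuttles. The same held for 9 of 15 other inner membrane transporters and 7 of 10 regulators of mitochondrial biogenesis. All were read in the same 10 arrays, so these counts are a description. Proteins that bring carriers into the inner membrane were split, with 6 higher in WT and 5 in Rac2-/-. The 3 tested outer membrane channels had differences from -0.18 to 0.18, and the 4 tested carrier relatives with other symbols from -0.12 to 0.04. With the term for the array sets 6 genes of the list passed (Aco1, Crat, Got1, the iron-sulphur scaffold Iscu, the pyruvate carrier subunit Mpc1 and the import receptor Tomm70a), beside the 9.34% of all features given above.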

How the data were processed

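Total RNA of 10 BMDM cultures, 5 WT and 5 Rac2-/-, was labelled and hybridised to Affymetrix arrays. Per the labels, the authors ran RMA (background correction, quantile normalization and probe summary), and the deposited table was taken as log2 from the range of its values. The methods name ComBat for a batch effect, but no source read here says whether it entered the deposited table. Groups and replicate numbers came from the labels, and gene symbols from the platform annotation. The numbers of features with 1 gene symbol, several and none were 21640, 1321 and 11799, and no feature with several symbols held a carrier.

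Features were kept by their fourth-highest value until as many remained as the methods retain (lowest kept value 4.73). WT and Rac2-/- were compared with limma 3.58.1 in R 4.3.3, without a block, and p-values were adjusted by Benjamini-Hochberg over all kept features (threshold 0.05). The code was tested on simulated data. Replicates are from separate mice, and no label links mice across groups by number. Deviations from group means correlated at 0.493 to 0.716 in same-numbered pairs, so the number was used as a block in a further fit. Other numbers of the same array set correlated at 0.476 to 0.724, and numbers of different sets at -0.716 to -0.515, so the block follows the array sets as much as the numbers. No pair of arrays was identical. The number of arrays limits the precision.

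Alternatives were no filter, only features with a mean above the median feature, the replicate block, a term for the array sets, fits within each set, a trended robust variance, quantile normalization, median centring, the mean of a gene's features, and leaving out each array. Promoter sequences were those of RefSeq (GRCm38.p6). Values were given in every array for members past the threshold without or with the block, for those whose groups did not overlap, for the 6 largest differences and for Slc25a23. Values of Slc25a15, Slc25a5 and Slc25a13 were added after their values were seen. The members and lists were chosen with earlier results of these data known.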

Additional observations from a re-analysis of the deposited data

Results flagged for a closer look

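Single arrays lay far from the others of their group in 4 of the 92 sets of 5 arrays that the 46 carriers give, where chance flags about 1 in 20. The dicarboxylate carrier Slc25a10 was at 10.27 in WT array 2, against 10.43 to 10.49 in the other WT arrays, and at 10.36 in Rac2-/- array 5, against 10.63 to 10.73 in the other Rac2-/- arrays. The glutamate carrier Slc25a18 was at 5.61 in WT array 1, against 6.02 to 6.13 in the others. Mitoferrin 2 (Slc25a28) was at 8.03 in Rac2-/- array 2, against 8.69 to 8.84 in the others.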

How the results depend on the processing

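The count of carriers past the threshold was 1 without a filter, with features above the median only, with the mean of features, with quantile normalization, with median centring and with a trended robust variance, and Slc25a22 was that carrier each time. It was 4 with the replicate block, 6 with the term for the array sets, 0 within arrays 1 and 2 and 4 within arrays 3 to 5 (Slc25a22, Slc25a23, Slc25a38 and Slc25a43), and 1 to 2 when an array was left out. The counts with the block, with the term and without Rac2-/- array 5 include Slc25a31, which passed the filter only through Rac2-/- arrays. Among the carriers and related genes the replicate block changed no call other than those of Slc25a4, Slc25a23, Slc25a31, Crat and Aco1. The related genes counted 2 with the replicate block, 6 with the term for the array sets, 3 within arrays 3 to 5 (Iscu, Mpc1 and Tomm70a), and 0 to 0 when an array was left out. All features counted 514 without a block, 1716 with the replicate block, 2524 with the term for the array sets, 2 within arrays 1 and 2, 1487 within arrays 3 to 5, and 245 to 625 when an array was left out. The median difference of the carriers ran from -0.0452 (without WT array 5) to 0.0472 (without WT array 2) when an array was left out. This median, -0.02 over all arrays, was above 0 with WT array 2 left out, and also with Rac2-/- array 4 (0.0268) or Rac2-/- array 5 (0.0079) left out. The differences of Slc25a4, Slc25a5, Slc25a13, Slc25a15, Slc25a22, Slc25a23, Slc25a31, Slc25a38 and Slc25a43 kept their direction in every fit tried. The cause of these changes was not tested, except that the fits within a set rest on 4 or 6 arrays. Other scalings moved the median of all features by at most 0.02.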

Other observations

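Where a gene had several features, the differences of all of them had the same sign. The other features of Slc25a5 had differences of -0.08 and -0.12 (adjusted p = 0.974 and 0.963), that of Slc25a36 had -0.13 (adjusted p = 0.835) and that of Slc25a40 had 0.04 (adjusted p = 0.999). Below the filter, the oxodicarboxylate carrier Slc25a21 was at 3.93 to 4.36 over the 10 arrays, and Slc25a54, a relative of the ATP-Mg/phosphate carriers, was at 3.40 to 3.83. These and Slc25a31 had the lowest means of the family.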
